A study of Glycine max with 16 samples.

Results

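The MYB transcription factors of soybean were followed in maturing seeds by taking every gene whose symbol is MYB and a number and which the probe annotation of the array pairs with a probe set of that gene alone. The rule found 65 genes among 6029 genes that have such a probe set, carried by 102 probe sets, with no limit on signal. Each gene was represented by the probe set with its highest mean over all arrays, which was a choice for 25 genes and the single probe set for the other 40. The symbol MYB145 stands for a pair of gene identifiers, so the 65 symbols cover 66 identifiers, and 8 of the symbols were not in the gene table at hand. That table lists MYB97 as a long non-coding RNA. It gives MYB120 and MYB134, both counted as members, as synonyms of the members MYB64 and MYB114. A further 15 probe sets pair a MYB gene with other genes as well and were not counted as members.

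MYB proteins bind DNA through repeats of a helix-turn-helix motif that gives the family its name. In plants most of them carry a pair of such repeats and regulate phenylpropanoid and flavonoid synthesis, cell identity and responses to drought, salt and temperature, while single-repeat members include parts of the circadian clock. In soybean, MYB176 activates CHS8, a chalcone synthase gene of isoflavonoid synthesis in seeds, and its location in the cell depends on binding to 14-3-3 proteins. Numbers of soybean MYB genes do not match those of Arabidopsis, so no role is carried over from a shared number.

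Transcripts were measured on Affymetrix Soybean Genome arrays in whole seeds, seed coat and embryo together, of the cultivar MG/BR 46 (Conquista). Stressed plants were moved at stage R5.5 to a greenhouse with a mean day temperature of 39.5 °C and received water only once they wilted. Non-stressed plants remained in the polytunnel with free water, where the mean temperature of the vegetative phase had been 24.7 °C. Stressed seeds were represented by 3 arrays in each of the stages R6 (green seed), R7 (start of maturity) and R8 (full maturity), and non-stressed seeds by 3 arrays for R6 but only 2 each for R7 and R8. Each replicate pooled the seeds of 2 pots of 4 plants, all groups were of the same cultivar, and seeds had been selected by colour after harvest. Since whole seeds were extracted, fewer cells of a type and less RNA per cell cannot be told apart.

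The deposited log2 signals reached 13.28, and 14068 to 15403 soybean probe sets per array lay above 3. Probe sets of soybean pathogens on the same arrays set the background, whose upper level was 1.02. Of the embryo markers 6 had group means above 3 throughout and GY3 did not, and of the seed coat markers LAR1 and SCB1 lay below 1.02 on average from R7 onward, with ANR1 below it in every group. The non-stressed R7 arrays stood apart, with 18S ribosomal RNA at 9.69 to 10.26 in stressed R7 seeds and at 6.32 and 8.34 in non-stressed R7 seeds. Actin was higher at its 3′ than at its 5′ end by 2.28 to 2.63 in stressed R7 seeds and by 4.26 and 3.18 in non-stressed R7 seeds. At R8 the 18S signal was 9.43 to 10.15 in stressed and 10.99 and 10.85 in non-stressed seeds. The actin difference at R8 was 2.05 to 2.25 in stressed and 1.56 and 1.94 in non-stressed seeds. Among the replicates, stressed R6 replicate 3 correlated least with its own group (mean r 0.980 over soybean probe sets). Of the 37593 soybean probe sets, 19194 had a group mean above 3 in at least 1 of the 6 groups and were tested with limma. Called genes changed 2-fold or more with a p of at most 0.05 after adjustment by Benjamini-Hochberg over all tested probe sets. Log2 fold changes of single genes are given ± their standard error.

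A large part of the MYB family gave little or no signal in these seeds. Of the 65 genes, 29 passed the signal limit and 36 did not, and 22 were at or below the background on all 16 arrays by the probe set that stands for them. Over all of their probe sets it was 21, since another probe set of MYB139 reached above the background. Several members with a known function gave little or no signal. MYB29, an activator of isoflavonoid genes in soybean, ranged between -0.01 and 0.36 over the arrays. MYB84, linked to drought tolerance, reached at most 0.25, and MYB76, which raises tolerance to salt and freezing when expressed in Arabidopsis, at most 0.89. MYB118, linked to drought and salt tolerance, reached 1.32, and MYB14, which shapes plant architecture, 1.39. MYB183, a factor of the flavonoid response to salt, and MYB114, listed as a clock gene of the LHY group, were at or below 1.02 on every array. MYB39, MYB100 and MYB174 had no probe set of their own under these symbols. At the edge of the limit, MYB73 just passed with a mean of 3.07 ± 0.34 (SD, n = 3) in non-stressed R6 seeds, and MYB12A just failed with 2.97 ± 0.33 (SD, n = 3) in stressed R7 seeds.

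The 29 tested members had their highest mean in different groups. Stressed R8 seeds held the highest level of 9 members and non-stressed R8 seeds of 4, while stressed and non-stressed R7 seeds held that of 5 each, and stressed and non-stressed R6 seeds that of 3 each. The range between a member's lowest and highest group mean ran between 0.78 (MYB107) and 4.91 (MYB172) on the log2 scale. MYB107 and MYB55 were the steadiest, with ranges of 0.78 each, and MYB172, MYB112 (4.23) and MYB79 (3.90) moved most.

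**Figure D1:**
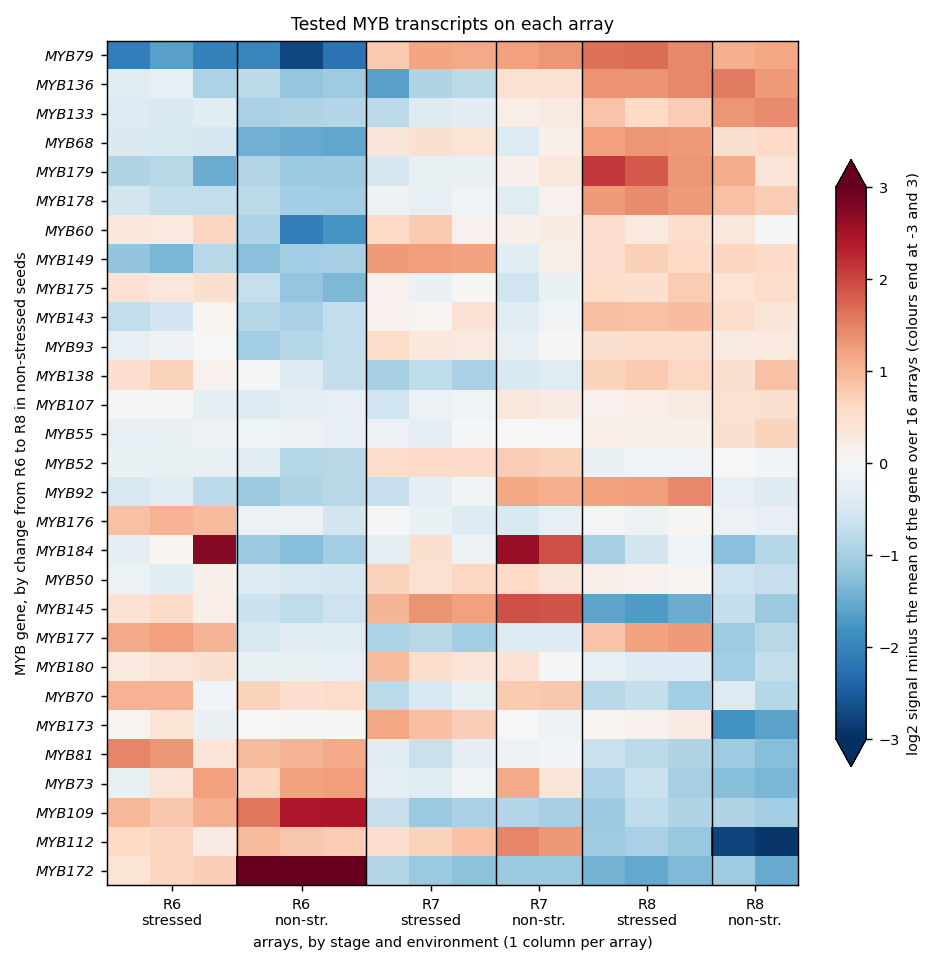
Log2 signal of each of the 29 tested MYB genes (rows) on each of the 16 arrays (columns, stressed left of non-stressed at each stage) minus the mean of that gene over all arrays. MYB172 and MYB109 stood out in non-stressed R6 seeds, MYB79 and MYB179 were lowest at R6, and MYB112 and MYB173 were lowest in non-stressed R8 seeds.

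At R6, when seeds are green and full, 7 of the 29 tested MYB genes were higher and 2 were lower in stressed seeds, while 20 did not pass. Over all tested probe sets 14.9% were called, 7.54% higher and 7.34% lower. The 7 that rose were MYB60, MYB184, MYB177, MYB175, MYB176, MYB145 and MYB68, and the 2 that fell were MYB172 and MYB109. The median log2 fold change of the 29 members was 0.41 and that of all tested probe sets 0.03. The stressed arrays lay wholly above the non-stressed ones for 16 members and wholly below for 3, where 25.5% and 28.2% of all tested probe sets did so (53.7% in either direction). With stressed R6 replicate 3 left out the counts were again 7 and 2, for the same 9 genes.

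MYB172 (NCBI gene 778180) showed the largest stress difference of the family at R6. Its log2 signal was 2.20, 2.43 and 2.53 in stressed R6 seeds, against 5.10, 5.45 and 5.28 in non-stressed R6 seeds. The groups were far apart, and every stressed array lay below the limit of 3 while every non-stressed array exceeded 5. The level was 7.42-fold lower under stress (log2 fold change -2.89 ± 0.14, adjusted p = 2.08e-07). A second probe set of the gene fell as well (log2 fold change -2.41, adjusted p = 1.71e-06), whereas the last lay below the background throughout and gave 0.01. MYB109 (778049), the other member that fell, measured 2.91, 2.71 and 2.97 in stressed against 3.49, 4.34 and 4.35 in non-stressed R6 seeds (log2 fold change -1.20 ± 0.21, adjusted p = 9.47e-04). Its groups did not overlap, although non-stressed replicate 1 lay well below the others. MYB172 and MYB109 passed the signal limit through non-stressed R6 seeds alone, so these falls are not independent of the limit. Both were also called in the fit without the limit.

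MYB60 (778080) had the largest fitted rise. Its arrays measured 5.28, 5.24 and 5.61 in stressed R6 seeds and 4.03, 2.91 and 3.18 in non-stressed R6 seeds. All stressed arrays exceeded all non-stressed ones by more than the spread within either group, and the level was 4.01-fold higher (log2 fold change 2.00 ± 0.25, adjusted p = 1.15e-04). A pair of further probe sets of the gene that passed the limit rose as well, by 1.58 and 1.74 on the log2 scale. The last one, below the limit, gave 0.69 in the fit without a limit (adjusted p = 0.0129) and was not called. MYB184 (778045) measured 0.97, 1.29 and 3.97 in stressed R6 seeds and 0.14, -0.05 and 0.22 in non-stressed R6 seeds. The groups did not overlap, but the high value came from stressed replicate 3 alone, and all non-stressed arrays were below the background. Its fitted log2 fold change was 1.97 (± 0.63, adjusted p = 0.0239), and the log2 fold change was 1.03 without stressed replicate 3. Against the background level it was at least 2.08-fold higher with all arrays, but at least 1.08-fold without that replicate. The call was lost when any of the 3 non-stressed R6 arrays was left out (log2 fold changes 1.99, 1.90 and 2.03).

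MYB177 (778060), which raises tolerance to salt and freezing when expressed in Arabidopsis, measured 5.17, 5.26 and 5.06 in stressed R6 seeds, against 3.55, 3.69 and 3.66 in non-stressed R6 seeds. The values were tight within each group and did not overlap, with a level 2.88-fold higher under stress (log2 fold change 1.53 ± 0.13, adjusted p = 6.78e-06). The weaker probe set of this gene, below the signal limit, gave 0.11. MYB145 measured 5.58, 5.72 and 5.36 in stressed against 4.51, 4.40 and 4.54 in non-stressed R6 seeds (log2 fold change 1.07 ± 0.13, adjusted p = 8.98e-05). MYB68, linked to tolerance of alkaline soil, measured 8.08, 8.07 and 7.99 in stressed against 7.07, 7.02 and 6.97 in non-stressed R6 seeds (log2 fold change 1.02 ± 0.08, adjusted p = 5.81e-06). Neither gene had overlapping groups, but both lay so near the 2-fold limit that MYB145 missed it without stressed replicate 2 (0.99) and with its weaker probe set (0.87), and MYB68 without non-stressed replicate 3 (0.997) and after quantile normalization (0.97).

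**Figure D2:**
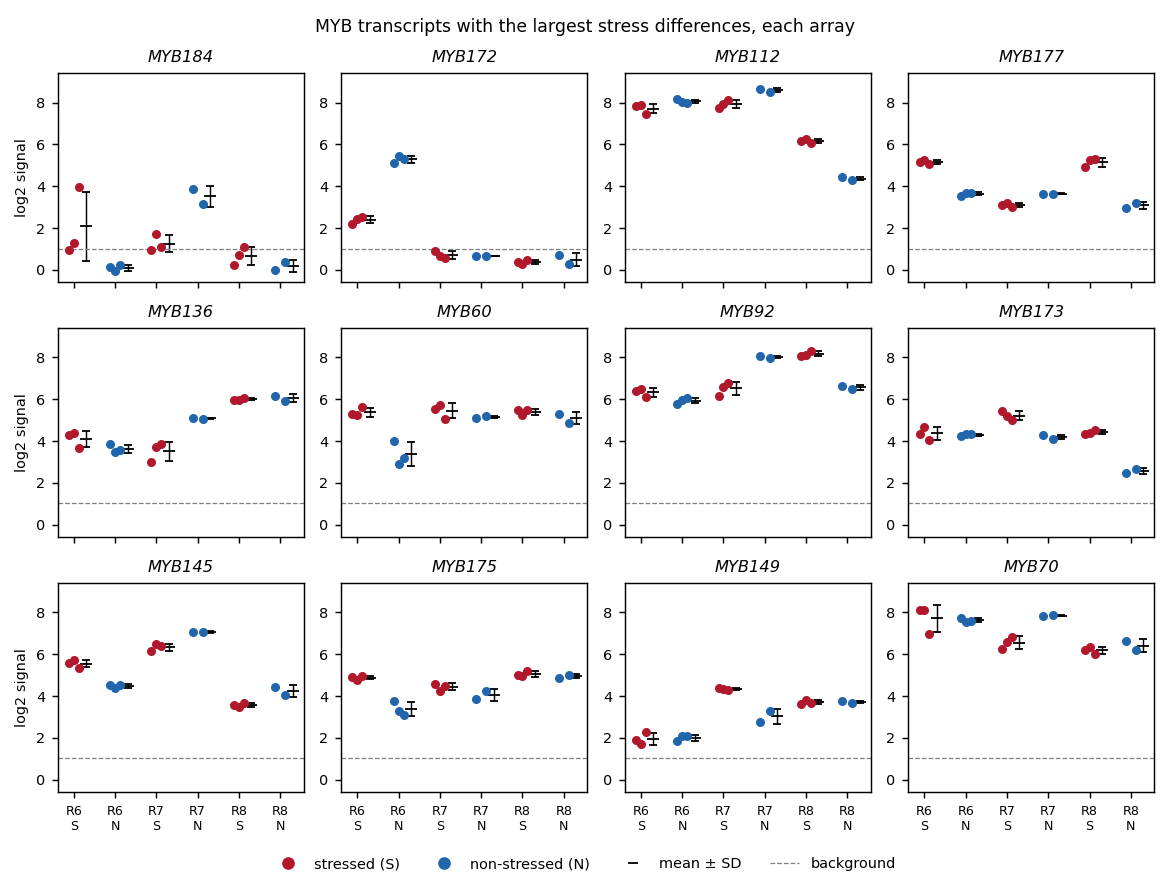
Log2 signal on every array (points, red for stressed and blue for non-stressed, with mean ± SD beside them) of 12 MYB genes, by stage, with the background at 1.02 as a dashed line. The 12 had the largest called values among the stress differences at each stage and the differences of the stress response between stages. The red and blue points of MYB172 and MYB60 separated at R6, those of MYB112 and MYB173 at R8, and those of MYB177 at both stages.

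The members tied to isoflavonoid synthesis differed among themselves at R6. MYB176 (778059) measured 6.66, 6.82 and 6.73 in stressed R6 seeds, against 5.60, 5.61 and 5.24 in non-stressed R6 seeds. The stressed R6 arrays were the highest of all 16, and the level was 2.38-fold that of non-stressed seeds (log2 fold change 1.25 ± 0.12, adjusted p = 1.49e-05). MYB175 (780536), a close copy by its shared probe sets, measured 4.89, 4.79 and 4.95 in stressed against 3.76, 3.31 and 3.12 in non-stressed R6 seeds (log2 fold change 1.48 ± 0.15, adjusted p = 3.08e-05). The groups did not overlap in either gene, but both are read by probe sets marked as open to cross-hybridization, so the pair is not independent. A further pair of probe sets that the annotation gives to both genes together had means of 5.84 and 5.12 in stressed R6 seeds and 3.88 and 3.83 in non-stressed R6 seeds. MYB133 (778164), a CCA1-like factor that raises isoflavonoid genes in soybean, measured 5.98, 5.89 and 6.03 in stressed against 5.39, 5.46 and 5.48 in non-stressed R6 seeds, a log2 fold change of 0.52 (± 0.09, adjusted p = 0.00112) that stayed under the 2-fold limit. MYB173, a phosphorylated factor of the flavonoid response to salt, had a log2 fold change of 0.07 ± 0.15.

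CHS8, the target of MYB176, had a mean log2 signal of 7.84 ± 0.42 in stressed and 8.39 ± 0.22 in non-stressed R6 seeds (SD, n = 3 each), with a log2 fold change of -0.55 (adjusted p = 0.0449) that was not called. IFS2, an isoflavone synthase gene, differed by 0.58 on the log2 scale (adjusted p = 0.00101) and was not called either. CHS8 and IFS2, like CHR5, F3H and SGF14f below, are read by probe sets marked as matching several transcripts. Their signals may therefore not be theirs alone. Of 25 flavonoid and isoflavonoid genes on the array 19 were tested, and at R6 2 of them rose and 8 fell under stress. IFR1, an isoflavone reductase, fell to 2.34 ± 0.59 in stressed seeds, against 6.51 ± 0.20 in non-stressed seeds (SD, n = 3 each; log2 fold change -4.17, adjusted p = 6.52e-07). DFR1, a dihydroflavonol reductase, fell by 2.91 on the log2 scale, and LAR1, of proanthocyanidin synthesis, fell to the background. CHR1, a chalcone reductase, rose by 2.68 (adjusted p = 9.22e-04). Of 8 genes of 14-3-3 proteins, partners of MYB176 among them, SGF14n and SGF14G fell (-1.81 and -1.01), and none rose by limma, also at an unadjusted p of 0.05. IFR1, DFR1, LAR1, CHI2-A, UGT78K1 and SGF14n passed the signal limit through non-stressed R6 seeds alone. Their falls at R6 are therefore not independent of the limit.

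Seed coat markers moved with the environment at R6 too. Of the 4 tested, SCB1, HPS and LAR1 fell and Ep rose, and the log2 of the summed signal of all 5 was 5.86 to 6.67 in stressed seeds and 9.25 to 9.84 in non-stressed seeds. LAR1 belongs to the flavonoid list as well. SCB1 and LAR1 passed the signal limit through non-stressed R6 seeds alone, and Ep through stressed R6 seeds alone. The changes of these markers at R6 are therefore not independent of the limit. The 7 embryo markers had summed levels of 14.99 to 15.07 in stressed and 15.02 to 15.05 in non-stressed R6 seeds, with none of the 6 tested genes called by limma and none at an unadjusted p of 0.05. The part of the seed coat in the MYB differences at R6 was not tested.

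At R8, in mature seed, 5 of the 29 tested MYB genes were higher in stressed seeds and none was lower, by limma, while 24 did not pass. Among all tested probe sets 8.51% were called, 6.01% higher and 2.5% lower, and at an unadjusted p of 0.05 alone 11 members were higher and 4 lower, beside 21.4% and 22.1% of all tested probe sets. The called genes were MYB177, MYB173, MYB112, MYB92 and MYB179. The stressed arrays lay wholly above the non-stressed ones for 15 members and wholly below for 4, beside 31.5% and 35.7% of all tested probe sets (67.2% in either direction). The median log2 fold change of the members was 0.31, and that of all tested probe sets was -0.03.

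MYB177 rose most at R8, with 4.90, 5.24 and 5.30 in stressed R8 seeds, against 2.96 and 3.21 in non-stressed R8 seeds. It was the only member called higher at both R6 and R8, and its groups did not overlap at either stage (log2 fold change at R8 2.06 ± 0.14, adjusted p = 4.30e-06). Its weaker probe set gave 0.93 at R8 and was not called. MYB173 (778058) measured 4.35, 4.41 and 4.52 in stressed R8 seeds and 2.47 and 2.68 in non-stressed R8 seeds. The stressed seeds kept about the level of R6 and the non-stressed ones lay below it, with a 3.61-fold difference (log2 fold change 1.85 ± 0.16, adjusted p = 2.44e-05).

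MYB112 (780556) measured 6.15, 6.25 and 6.07 in stressed R8 seeds, against 4.43 and 4.30 in non-stressed R8 seeds. The groups were well apart, with a level 3.45-fold higher under stress (log2 fold change 1.79 ± 0.14, adjusted p = 9.05e-06). MYB50, a close copy with which MYB112 shares probe sets that were set aside, differed less at R8 (log2 fold change 0.78, adjusted p = 0.00187) and was not called. MYB92 (100101857), another factor that raises tolerance to salt and freezing in Arabidopsis, measured 8.09, 8.14 and 8.33 in stressed R8 seeds and 6.64 and 6.49 in non-stressed R8 seeds. No array overlapped, and the level was 3.07-fold higher (log2 fold change 1.62 ± 0.14, adjusted p = 2.50e-05), with 1.5 and 1.21 for its other probe sets, of which that with 1.21 was called.

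MYB179 measured 3.77, 3.50 and 2.97 in stressed R8 seeds and 2.77 and 2.04 in non-stressed R8 seeds. It passed the signal limit through stressed R8 seeds alone, so its rise is not independent of the limit. Its call at R8 was kept in the fit without the limit. The groups came close without overlapping, and the difference just reached the limit (log2 fold change 1.00 ± 0.28, adjusted p = 0.0211). The call was lost if non-stressed R8 replicate 2 was left out (0.64), or stressed R8 replicate 1 or 2 (0.83 and 0.96), or with medians centred (0.97) or quantile normalization (0.91). Among members that were not called, MYB68 had 0.745 (adjusted p = 2.09e-04) and MYB133 and MYB145 had -0.63 and -0.67, all under the 2-fold limit.

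The embryo markers moved in the same comparison. Of 6 tested, 5 were higher in stressed R8 seeds, with summed levels of 13.89 to 13.96 in stressed and 11.27 to 12.36 in non-stressed R8 seeds, and the seed coat markers had sums of 2.93 to 3.21 in stressed and 2.92 to 3.00 in non-stressed R8 seeds, with 4 of 5 at the background in both groups and none called by limma, also at an unadjusted p of 0.05. Whether the embryo transcripts account for part of the MYB differences at R8 was not tested, nor was the part of the ribosomal RNA and actin differences at R8. Of the flavonoid genes CHR5 alone was called, with a mean of 1.88 in stressed seeds and a mean below the background in non-stressed seeds, and CHS8 differed by 0.79 (adjusted p = 0.0220) without reaching the limit. None of the 14-3-3 genes was called by limma at R8, and 2 passed an unadjusted p of 0.05.

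**Figure D3:**
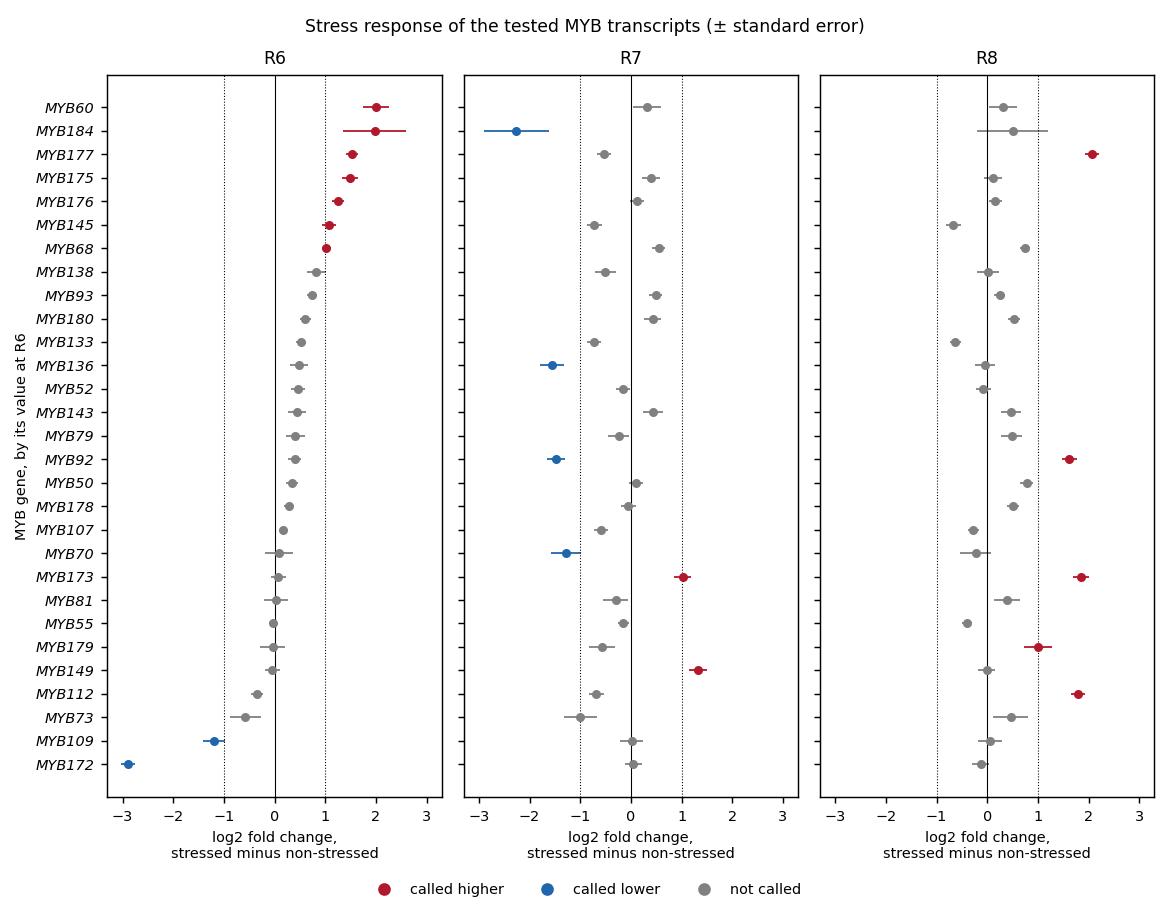
Log2 fold change of stressed minus non-stressed seeds (± standard error) of the 29 tested MYB genes at R6, R7 and R8, with genes in the order of their value at R6, red where called higher and blue where called lower. Of the 7 genes called higher at R6 only MYB177 was called at R8, and the other 4 called at R8 lay between -0.35 and 0.40 at R6.

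At R7, 2 of the 29 tested MYB genes were higher and 4 were lower in stressed seeds, and 23 did not pass. The authors left R7 out of their own comparison, as they took its samples to mix seeds of slightly differing maturity. The part of that mixture in the R7 results was not tested. All tested probe sets gave 18.6% called, 6.62% higher and 11.9% lower, and the higher ones made up 35.6% of all calls, or 46.0% with array medians centred, which left the MYB counts at 2 and 4. MYB149 and MYB173 rose, and MYB184, MYB136, MYB92 and MYB70 fell. Stressed arrays lay above the non-stressed ones for 6 members and below for 16, beside 28.6% and 35.3% of all tested probe sets (63.9% in either direction). The median log2 fold change was -0.15 for the members and -0.06 for all tested probe sets. The part of the ribosomal RNA and actin differences of the non-stressed R7 arrays in these results was not tested, nor was that of the embryo markers, of which 4 of 6 tested were lower under stress at R7, with sums of 12.72 to 13.19 in stressed and 14.31 to 14.41 in non-stressed R7 seeds. Of the seed coat markers none was called by limma at R7, and 2 were lower at an unadjusted p of 0.05.

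MYB92 measured 6.18, 6.61 and 6.79 in stressed R7 seeds, against 8.05 and 7.97 in non-stressed R7 seeds. The groups did not overlap, and the direction was the reverse of that at R8 (log2 fold change at R7 -1.49 ± 0.17, adjusted p = 5.77e-05). The weakest of its 3 probe sets by mean signal gave -0.97, not called, and the other -3.91. MYB136 (778054) measured 3.01, 3.72 and 3.85 in stressed R7 seeds and 5.10 and 5.07 in non-stressed R7 seeds. Every stressed array lay more than 1 log2 unit lower (log2 fold change -1.56 ± 0.24, adjusted p = 2.91e-04), and a second probe set agreed in size (-1.48).

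MYB70 (778174) measured 6.25, 6.60 and 6.83 in stressed against 7.83 and 7.86 in non-stressed R7 seeds (log2 fold change -1.28 ± 0.29, adjusted p = 0.00261). MYB184 measured 0.95, 1.70 and 1.08 in stressed against 3.85 and 3.17 in non-stressed R7 seeds, the only group in which all of its arrays exceeded 3. MYB184 passed the signal limit through that group alone, so its fall here is not independent of the limit. Its log2 fold change of -2.26 (± 0.64, adjusted p = 0.00987) was -1.92 and no longer called without non-stressed replicate 1. Neither gene had overlapping groups.

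MYB149 (778091) measured 4.37, 4.35 and 4.31 in stressed R7 seeds and 2.78 and 3.27 in non-stressed R7 seeds. The stressed R7 arrays were its highest of all 16, with a log2 fold change of 1.32 (± 0.17, adjusted p = 9.92e-05). MYB173 measured 5.45, 5.18 and 5.01 in stressed R7 seeds and 4.27 and 4.12 in non-stressed R7 seeds, with no overlap (log2 fold change 1.02 ± 0.17, adjusted p = 4.49e-04). It missed the 2-fold limit without non-stressed replicate 2 (0.95) or stressed replicate 1 (0.90), and it was the single member called higher at both R7 and R8. Of the flavonoid genes 2 rose and 1 fell at R7, and CHS8 had a log2 fold change of -0.06, while of the 14-3-3 genes SGF14f alone was called, higher by 1.68.

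Read over the 3 stages, 16 of the 29 tested members were called in at least 1 stress comparison and 13 in none, beside 35.1% of all tested probe sets called at least once. By the adjusted p alone, with no limit on the fold, 19 members passed at R6, 15 at R7 and 12 at R8, where 50.1%, 50.7% and 33.6% of all tested probe sets did. Called at R6 alone were MYB145, MYB175, MYB176, MYB60 and MYB68, which were higher, and MYB109 and MYB172, which were lower. MYB149, MYB136 and MYB70 were called at R7 alone, and MYB112 and MYB179 at R8 alone. MYB184 was called higher at R6 and lower at R7, and MYB92 lower at R7 and higher at R8. Only MYB177 and MYB173 were called in the same direction at 2 stages. Between its calls MYB177 had -0.54 at R7, with the stressed arrays wholly below the non-stressed ones. Calls set aside, the stressed arrays of MYB68, MYB93 and MYB143 lay wholly above the non-stressed ones at all 3 stages. At a single stage 25.5% (R6), 28.6% (R7) and 31.5% (R8) of all tested probe sets did so. The share that did so at all 3 stages was not counted, so this is a description of these genes only.

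The difference between the responses was tested directly. Between R8 and R6, the response of 11 members differed, 6 upward, with a higher value at R8, and 5 downward, while 20.3% of all tested probe sets were called, 11.4% and 8.84%. Those with the higher value at R8 were MYB172 (difference 2.76, adjusted p = 1.09e-05), MYB112 (2.13, adjusted p = 1.95e-05), MYB173 (1.78), MYB109 (1.25), MYB92 (1.22) and MYB179 (1.05, adjusted p = 0.0498). MYB172 and MYB109 lay at or about the background at R8 in both environments, so their differences rest on the values at R6. Non-stressed R6 seeds alone carried both genes past the signal limit. Those with the lower value at R8 were MYB145 (-1.74, adjusted p = 1.01e-04), MYB60 (-1.69), MYB175 (-1.37), MYB133 (-1.16) and MYB176 (-1.09, adjusted p = 8.07e-04). MYB177, called at both stages, had a difference of 0.53 (adjusted p = 0.0443) under the 2-fold limit. The call of MYB176 was lost without non-stressed R6 replicate 3 (-0.97), and that of MYB179 was lost when any of 8 arrays was left out. MYB179 also lost it with no signal limit (adjusted p = 0.0637 by limma), with array weights (0.90) and with quantile normalization (0.94). By their weakest probe sets MYB60 (-0.90) and MYB133 (-0.87) were not called, and MYB172 had -0.01. The other probe sets of MYB92 gave 0.355 and 1.129, and only 1 of them was called.

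Between R7 and R6 the response differed for 14 members, 3 upward and 11 downward, with 39.0% of all tested probe sets called, 17.1% and 21.8%. This comparison used the same R6 arrays as the last one, so the calls of both are not independent. The downward ones were MYB184 (-4.23), MYB177 (-2.06), MYB136 (-2.04), MYB92 (-1.88), MYB145 (-1.79), MYB60 (-1.69), MYB70 (-1.36), MYB138 (-1.33), MYB133 (-1.25), MYB176 (-1.14) and MYB175 (-1.09), and the upward ones MYB172 (2.94), MYB149 (1.37) and MYB109 (1.21). The value of MYB175 fell under the 2-fold limit with medians centred (-0.99) and when non-stressed R6 replicate 3 (-0.951), replicate 2 of non-stressed R7 (-0.89) or replicate 2 of stressed R7 (-0.997) was omitted. MYB172 and MYB109 were at or about the background at R7 too. By their weakest probe sets MYB177 (-0.12) and MYB138 (-0.73) were not called, and MYB172 had -0.16.

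More members were called between R8 and R6 than in any stress comparison at a single stage. In stressed seeds 9 members were higher and 8 lower at R8 than at R6, and in non-stressed seeds 12 were higher and 7 lower, with 22 called in at least 1 environment, where 68.8% of all tested probe sets were. Among all tested probe sets 54.4% were called in stressed seeds, 27.3% higher and 27.1% lower, and 62.8% in non-stressed seeds, 32.5% higher and 30.3% lower. The members' shares were thus near those of all probe sets. Centring the array medians shifted all values upward by 0.29 in stressed and 0.34 in non-stressed seeds, and the share of higher among all calls then was 60.1% (from 50.1%) and 60.4% (from 51.8%), while the members had 9 higher and 7 lower in stressed and 14 higher and 6 lower in non-stressed seeds. The embryo markers were lower at R8 in 4 of 6 genes in stressed and 6 of 6 in non-stressed seeds, and the seed coat markers in 3 of 4 and 4 of 4, and their part in the MYB changes was not tested.

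MYB79 had the largest fitted rise in both environments. It measured 5.30, 5.34 and 5.10 at R8 and 1.59, 2.04 and 1.64 at R6 in stressed seeds, and 4.72 and 4.81 at R8 and 1.67, 0.93 and 1.44 at R6 in non-stressed seeds. The rise was 11.2-fold in stressed seeds (log2 fold change 3.49 ± 0.19, adjusted p = 3.29e-08) and 10.7-fold in non-stressed seeds (3.42 ± 0.21, adjusted p = 6.79e-08), and it was already complete for the most part at R7, where means were 4.70 and 4.94. MYB179, a relative that shares a probe set with MYB79, was at the background on all R6 arrays and rose at least 5.25-fold in stressed and at least 2.62-fold in non-stressed seeds.

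MYB172 had the lowest fitted value in both environments, though its size at R8 is open on the low side. It lay at 0.37, 0.26 and 0.46 at R8 in stressed and 0.71 and 0.28 in non-stressed seeds, all below the background, so that against its R6 values it fell at least 2.57-fold in stressed and at least 19.1-fold in non-stressed seeds (fitted log2 fold changes -2.02 and -4.78). Its weakest probe set, below the background throughout, gave 0.02 and 0.03. MYB109 fell likewise, by 1.88 on the fitted log2 scale in stressed seeds, and to the background, at least 8.23-fold, in non-stressed seeds. MYB112 fell by 1.55 in stressed (adjusted p = 5.99e-07) and by 3.69 in non-stressed seeds (adjusted p = 1.92e-09). Its level at R7 was still 7.91 in stressed and 8.60 in non-stressed seeds, so the drop lay between R7 and R8.

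Other members that rose in both environments were MYB136 (log2 fold change 1.89 in stressed and 2.41 in non-stressed seeds), MYB68 (1.75 and 2.03), MYB178 (2.00 and 1.78), MYB149 (1.73 and 1.70), MYB133 (1.12 and 2.28) and MYB143 (1.32 and 1.29). Others that fell in both were MYB81 (-1.84 and -2.20), which affects germination under stress, MYB73 (-1.32 and -2.36), which raises lipid content in transgenic plants, and MYB70 (-1.54 and -1.23). With medians centred MYB70 was not called in non-stressed seeds (-0.89). MYB73 measured 1.10, 1.36 and 1.04 at R8 against 1.80, 2.41 and 3.25 at R6 in stressed seeds, and its fall was not called there without stressed R6 replicate 3 (-0.94) or by its weaker probe set (-0.83). In non-stressed seeds it was at the background at R8, at least 4.13-fold lower than at R6.

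Some members moved in 1 environment and not in the other, and the test of the difference between R8 and R6 responses given above applies to these same values. MYB145 fell by 1.99 in stressed seeds and had -0.24 in non-stressed seeds, and its other probe set gave -0.76 in stressed seeds and was not called. MYB92 rose by 1.85 in stressed seeds and had 0.63 in non-stressed seeds. MYB176 had -1.003 in stressed seeds, at the limit, and 0.09 in non-stressed seeds, and it was not called with medians centred (-0.71) or without stressed R6 or R8 replicate 2 (-0.961 and -0.959). In the other direction MYB60 and MYB175 had 0.03 and 0.18 in stressed seeds and rose by 1.73 and 1.55 in non-stressed seeds, where their R8 means, 5.10 and 4.95, came near the 5.37 and 4.88 of stressed R6 seeds. MYB173 had 0.05 in stressed seeds and fell by 1.73 in non-stressed seeds. MYB138 and MYB93 were called in non-stressed seeds (1.06 and 1.13), with MYB138 lost without non-stressed R6 replicate 3 (0.89) or non-stressed R8 replicate 2 (0.87), and their differences between environments were not called.

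**Figure D4:**
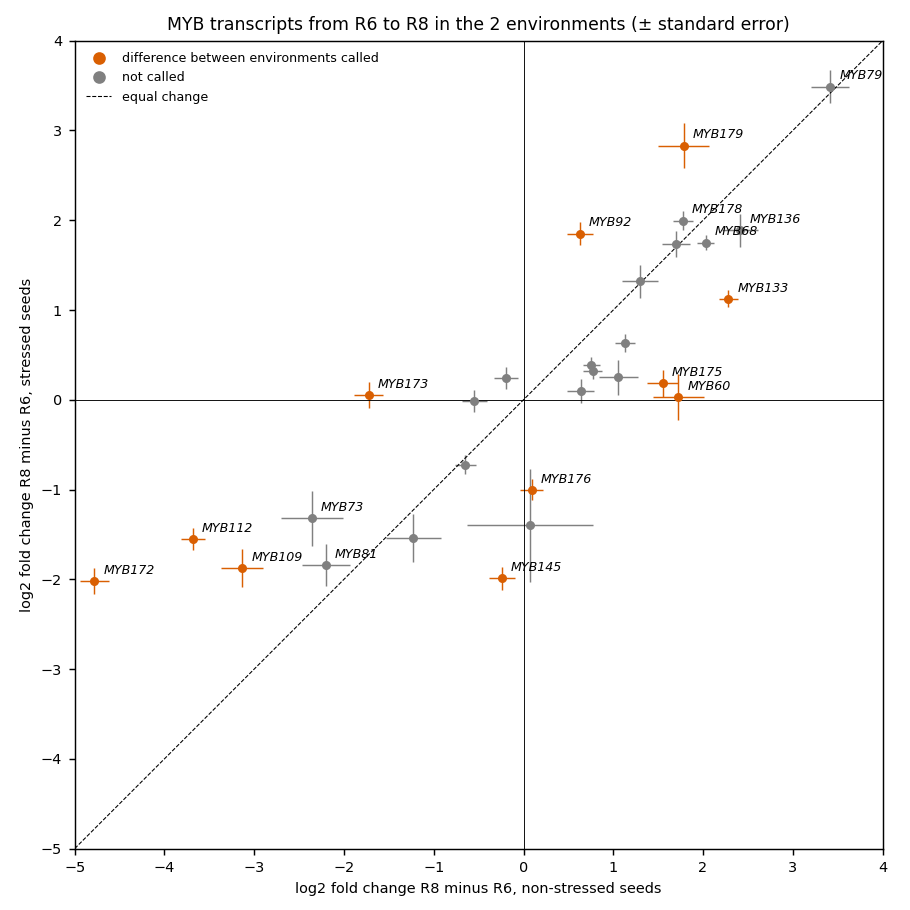
Log2 fold change R8 minus R6 (± standard error) of the 29 tested MYB genes in stressed seeds (vertical axis) against non-stressed seeds (horizontal axis), orange where the environments differed. MYB79 lies near the line of equal change at about 3.4, MYB172 and MYB112 fell further in non-stressed seeds, and MYB60, MYB175 and MYB173 changed in non-stressed seeds alone.

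Most flavonoid genes were lower at R8 than at R6, with 14 of 19 lower and none higher by limma in each environment (1 and 2 higher at an unadjusted p of 0.05). CHS8 fell by 2.67 in stressed and 4.01 in non-stressed seeds, where MYB176 had -1.003 and 0.09. F3H, a flavanone hydroxylase, fell to 0.72 ± 0.17 at R8 against 6.16 ± 0.42 at R6 in stressed seeds (SD, n = 3 each). Of the 14-3-3 genes 3 of 8 fell in stressed seeds and 5 of 8 in non-stressed seeds.

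The 13 members called in no stress comparison still included changes below the 2-fold limit. At R6 the stress response of MYB93 was 0.74 (adjusted p = 2.06e-04), that of MYB138 0.82 and that of MYB180 0.60. MYB107, MYB180, MYB50, MYB52 and MYB55 were called in none of the 7 comparisons, so that 24 of the 29 were called in at least 1, beside 79.3% of all tested probe sets. MYB180 nonetheless had log2 fold changes R8 minus R6 of -0.72 in stressed and -0.65 in non-stressed seeds, and MYB107 had -0.60 under stress at R7 (adjusted p = 0.00333), all short of 2-fold.

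Where a called member had further probe sets that passed the signal limit, these moved the same way. This held for all 30 such calls, in 8 genes, and in 27 of them at least 1 other probe set was called too. The sizes differed, though. The response of MYB92 at R7 spanned -0.97 to -3.91 over 3 probe sets, and MYB133, not called at R7 by its strongest probe set (-0.72), was called lower there by the other 2 (-1.28 and -1.19). MYB145 at R7 had -0.72 by its strongest probe set and -1.48, called, by the other, which belongs to the second gene identifier of that symbol.

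**Figure D5:**
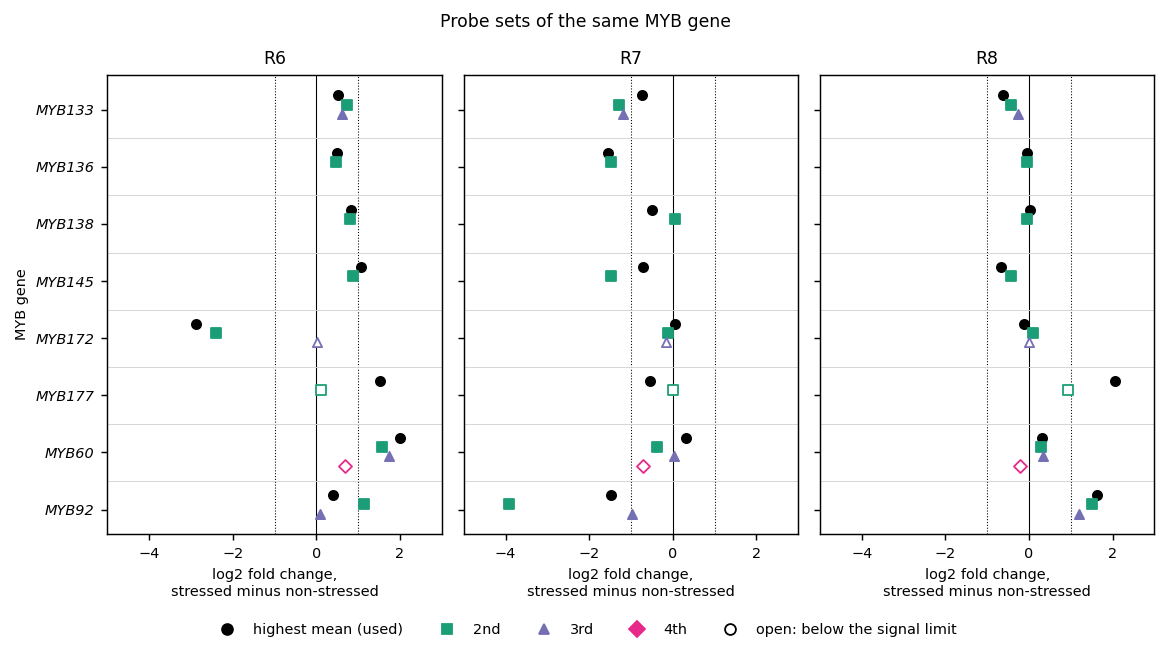
Log2 fold change of stressed minus non-stressed seeds at R6, R7 and R8 for every probe set of 8 MYB genes with several (circle for the probe set with the highest mean, then square, triangle and diamond, open where below the signal limit). Filled symbols of 1 gene lie on the same side of 0 where the circle passed the 2-fold limit, and the open ones of MYB172 and MYB177 stay near 0 at R6.

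Among the 36 members below the signal limit a few moved above the background in 1 group. In a fit without the limit, 2 of the 36 were lower and none higher under stress at R6 by limma, where 4.59% of all 37593 probe sets were called lower and 4.32% higher. MYB134 measured 0.56, 0.43 and 0.21 in stressed R6 seeds, against 2.92, 2.06 and 1.95 in non-stressed R6 seeds (at least 2.44-fold lower, adjusted p = 4.43e-05). The gene table lists MYB134 as a synonym of MYB114, which the annotation pairs with another probe set, so which gene this value belongs to is not settled. MYB124 measured 0.73, 0.61 and 1.01 in stressed R6 seeds, against 2.15, 2.69 and 2.14 in non-stressed R6 seeds (at least 2.47-fold lower, adjusted p = 2.63e-05). Both were at or below the background on every stressed R6 array and, like MYB172 and MYB109, had their highest level in non-stressed R6 seeds. In stressed seeds 1 of the 36 (MYB121) was higher and 4 (MYB75, MYB83, MYB85 and MYB127) were lower at R8 than at R6, beside 15.6% and 16.8% of all probe sets. In non-stressed seeds none was higher and 3 (MYB85, MYB124 and MYB134) were lower by limma, beside 19.1% and 19.6%, with MYB85 falling to the background in both, at least 1.98-fold in stressed and at least 2.67-fold in non-stressed seeds. MYB12A remained between 1.98 and 3.34 on all arrays with no call in any of the 7 comparisons.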

How the data were processed

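Whole maturing seeds were profiled on 16 Affymetrix Soybean Genome arrays in 6 groups, and the methods name 18 arrays, of which the others were not analysed here. The deposited values are log2 signals per probe set that the authors had made with RMA, which corrects background, quantile-normalizes across arrays and summarizes probes. No depth exists for arrays, so their number limits the precision. Replicates came from separate pairs of pots, and whether they differed in anything further is not given in the sources used here. Of 61170 probe sets 37593 are soybean, and the 23350 pathogen probe sets gave the background, the highest 95th percentile of an array (1.02). Members and lists were chosen with earlier results of these data known.

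Probe sets with a group mean above 3 in at least 1 group were tested with limma 3.58.1 in R 4.3.3, with p-values adjusted over all 19194. MYB172, MYB109, MYB73, MYB184 and MYB179 passed through 1 group alone, so their differences from that group are not independent of the limit. Comparisons of R6 and R8 used the 11 arrays of these stages, and those of R7 all 16. A difference of responses is the stress response at the later stage minus that at R6. Where a group lay at or below the background on every array, the fold is given as a lower bound against the background or, if higher, the array's own value, and the fitted value is no bound. Functional remarks are background knowledge. Gene symbols came from the platform annotation, in which 8677 probe sets have 1 gene and 370 several. The model was tested on simulated data.

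Named members were those called in a stress comparison or in a difference of responses, the 5 with the largest rise and fall in maturation, those with a documented role, those at the signal limit and those whose probe sets differ in call. Of the flavonoid list up to 4 called genes a comparison were named, and CHS8, IFS2 and other genes beyond the rule were named after their values were seen. Alternatives were no filter, a limit of 5, trend and robust settings, array weights, centred medians, quantile normalization, a replicate block, other probe sets, adjusted p alone, other sets of arrays and leaving out each array.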

Additional observations from a re-analysis of the deposited data

Results flagged for a closer look

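The stress response of these MYB genes differed between stages by limma's test of the difference itself. Between R8 and R6 the differences in log2 fold change were 2.76 for MYB172, 2.13 for MYB112, 1.78 for MYB173, 1.25 for MYB109, 1.22 for MYB92 and 1.05 for MYB179, where the response at R8 was the higher. They were -1.745 for MYB145, -1.69 for MYB60, -1.37 for MYB175, -1.16 for MYB133 and -1.095 for MYB176, where the response at R8 was the lower.

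Between R7 and R6 the differences were 2.94 for MYB172, 1.37 for MYB149 and 1.21 for MYB109 upward. Downward they were -4.23 for MYB184, -2.065 for MYB177, -2.04 for MYB136, -1.88 for MYB92, -1.795 for MYB145, -1.685 for MYB60, -1.365 for MYB70, -1.33 for MYB138, -1.25 for MYB133, -1.14 for MYB176 and -1.09 for MYB175. The R6 arrays entered both sets of differences. The RNA quality values of the non-stressed R7 arrays move with the R7 set, and their part was not tested. Nor was that of the mixed maturity of seeds that the authors reported for R7.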

How the results depend on the processing

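Of 1357 values of 81 results of single genes under the alternatives, 1302 kept their direction and side of the threshold, 50 lost the call and 5 changed sign. All 5 were MYB172 read by its weakest probe set, with 0.006 at R6, -0.011 and -0.156 for the differences R8 and R7 minus R6, and 0.018 and 0.029 for maturation in stressed and non-stressed seeds. That probe set reached at most 0.31 on any array, below the background of 1.02, so it measured no change in either direction. Some of the 1302 were fixed in advance, since adjusted p alone could not lose a call. Genes that failed the limit of 5 were left out of that setting and not counted as lost. For genes with 1 probe set, the weakest probe set repeated the fit without a limit.

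By adjusted p alone 19 members passed at R6, 12 at R8 and 15 at R7, where 50.1%, 33.6% and 50.7% of all tested probe sets did. Counting each of the 42 member probe sets that passed the limit, in place of 29 genes, gave 11 calls at R7 and 27 in stressed maturation. It gave 17 and 23 for the differences R8 and R7 minus R6. Of all tested probe sets 18.6%, 54.4%, 20.3% and 39.0% were called in these 4 comparisons. Leaving out single arrays gave 7 to 9 calls at R6, 5 to 7 at R7, 4 to 5 at R8, 9 to 12 and 13 to 15 for the differences, and 16 to 18 and 18 to 19 for maturation in stressed and non-stressed seeds. Without a signal limit there were 11 calls at R6, 5 at R8 and 6 at R7, now among all 65 members. At R6 4.32% of all 37593 probe sets were then called higher and 4.59% lower. For R7 and R8 without the limit, for left-out arrays and for the block below, no share of all probe sets is given.

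Replicate numbers did not pair the samples, since same-numbered deviations correlated between -0.217 and 0.365, so the replicate block is only a further fit. With the block 9 members were called at R6, 5 at R8, 7 at R7, 11 and 15 for the differences, and 18 each in maturation, with MYB138 lost in non-stressed seeds (0.94).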

Other observations

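Probe sets that the annotation pairs with a MYB gene and further genes belonged to no member. A pair of them for MYB112 and MYB50 had means of 8.04 and 8.02 in stressed R8 seeds, against 7.06 and 7.001 in non-stressed R8 seeds. A probe set for MYB180 and MYB93 had 6.35 in stressed and 5.68 in non-stressed R6 seeds. A probe set for MYB179, MYB79 and MYBZ2 had 4.20 at R8 and 1.25 at R6 in stressed seeds, and 3.65 at R8 and 1.37 at R6 in non-stressed seeds.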
